A study of Mus musculus with 4 samples.

Results

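Mouse genes of fatty acid use and lipid storage were followed in C2C12 myotubes, 10 of the 23282 gene features of the deposited table, chosen by symbol from a list of genes for lipid uptake, oxidation, storage and their regulation. They are Lpl, Angptl4 and Cd36 (uptake), Acsl1, Cpt1b and Ucp3 (activation and oxidation), Plin2 and Lpin1 (storage), and Ppard and Ppargc1a (regulators). C2C12 is a female mouse myoblast line that fuses into multinucleated myotubes on differentiation. All cultures had been deprived of steroids. They then received either vehicle or 1 µM dexamethasone, a synthetic agonist of the glucocorticoid receptor, for 2 h, with 2 libraries per group, and RNA that stayed bound to chromatin was counted per gene. A single clonal line grown without fat, vascular or blood cells stands in for muscle here. The labels do not say whether the replicates were separate cultures, so the tests measure only the spread between these libraries, which may be technical.

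Muscle draws much of its energy from fatty acids. Lipoprotein lipase frees them from circulating triglyceride, transporters such as CD36 bring them in, acyl-CoA synthetases trap them as thioesters, and carnitine palmitoyltransferase 1 admits them to mitochondria for oxidation. What is not burned is esterified, with lipins making the diacylglycerol, and stored in droplets coated by perilipins. The nuclear receptor PPAR-delta, activated by fatty acids, and the coactivator PGC-1alpha switch on many of these genes. Glucocorticoids are known to shift muscle fuel use from glucose towards fat over hours to days.

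The promoters of a pair of members, each beside that of a relative with a higher fold change, are shown first, since the counts report on transcripts still at their genes. RefSeq's table (GRCm38.p6) held promoters for 7 of the 10 genes, 8 sequences in all, and none for Lpl, Angptl4 or Cpt1b. The submitters' processing notes name mm9, another build, so these coordinates are for the sequences alone. Each sequence is the 250 bases before a start, written 5′ to 3′ along the gene, in lower case with matches to 3 motifs in capitals. The lipin pair is Lpin1 and the one of Lpin2's 3 listed promoters that holds a match.
Lpin1, chr12:16610967-16611216, minus strand: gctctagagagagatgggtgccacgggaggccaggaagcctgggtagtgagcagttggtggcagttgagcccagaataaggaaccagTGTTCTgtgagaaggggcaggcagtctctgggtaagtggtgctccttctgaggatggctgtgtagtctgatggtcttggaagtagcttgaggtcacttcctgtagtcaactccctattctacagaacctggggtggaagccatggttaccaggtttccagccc
Lpin2, chr17:71204404-71204653, plus strand: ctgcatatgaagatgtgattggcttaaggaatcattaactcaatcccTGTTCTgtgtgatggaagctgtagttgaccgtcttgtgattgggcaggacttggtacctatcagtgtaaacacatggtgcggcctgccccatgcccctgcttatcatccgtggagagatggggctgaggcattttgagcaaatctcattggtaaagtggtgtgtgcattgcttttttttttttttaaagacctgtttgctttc
The perilipin pair is Plin2 and Plin4, neither with a match.
Plin2, chr4:86670060-86670309, minus strand: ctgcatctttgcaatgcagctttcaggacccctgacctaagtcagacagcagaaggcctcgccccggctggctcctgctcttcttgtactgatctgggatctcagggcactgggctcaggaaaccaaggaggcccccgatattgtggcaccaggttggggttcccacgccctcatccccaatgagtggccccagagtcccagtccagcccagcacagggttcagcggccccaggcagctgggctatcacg
Plin4, chr17:56109783-56110032, minus strand: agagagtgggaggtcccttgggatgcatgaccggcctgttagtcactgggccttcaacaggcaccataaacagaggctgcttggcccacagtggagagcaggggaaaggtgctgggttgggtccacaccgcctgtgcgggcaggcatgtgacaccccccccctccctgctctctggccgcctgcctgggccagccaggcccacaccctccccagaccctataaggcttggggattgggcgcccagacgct
The motifs were searched on both strands in the 300 bases from 250 before to 50 after each start. The hexamer AGAACA, one arm of the glucocorticoid receptor's element, which reads TGTTCT on the other strand, was in 1 of the 8 promoters, that of Lpin1, where it begins at position -163 from the start. It was in 19.0% of all 32851 promoters of the same length. In the Lpin2 promoter shown it begins at position -203. The receptor's full element, with both arms as a palindrome, was in 0 of the 8 and in 0.475% of all promoters. The direct repeat bound by PPAR and RXR pairs (the DR1 element) was in 0 of the 8 and in 0.381% of all. The hexamer can lie inside the full element, so these searches overlap. A match is a run of letters, not a binding site, and a missing match says nothing on sites elsewhere.

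The libraries held between 19631435 and 88596296 counts. All 10 markers of myotubes (Myh3, Myh8, Ttn, Neb, Ckm, Actn2, Ryr1, Mymk, Myog and Des) were abundant enough to test. Of 8 adipocyte markers 7 were not, with Adipoq at 7 counts or fewer and Plin1 at 2 or fewer in every library, and Cfd and Cidec were listed at 0. Pparg was the exception. Of 5 endothelial markers 3 were too low to test, including Cdh5, and Gpihbp1 was listed at 0. Of 5 macrophage markers 3 were too low, with Ptprc at 1 count or fewer. The other markers of both lists had enough counts to test. They were Pecam1 (21 to 104 counts per library) and Tek (19 to 86), and Cd68 (67 to 273) and Itgam (62 to 195). For scale, the receptor's co-chaperone gene Fkbp5 had a log2 fold change of 5.32 (SE 0.263) and the receptor gene Nr3c1 one of -1.03 (SE 0.251).

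Of the 10 genes 9 had enough counts for the test of dexamethasone against vehicle, and none passed. At an adjusted p under 0.05 (edgeR's quasi-likelihood test, Benjamini-Hochberg over 13285 genes), 0 members were higher and 0 lower, against 0.0376% of all tested genes called higher and 0% called lower. At an unadjusted p under 0.05, 1 member, Lpl, was lower and 0 were higher, against 1.69% and 4.09% of all tested genes. DESeq2's Wald test and edgeR's likelihood ratio test each called 1 member lower, again Lpl, and 0 higher, against 0.399% and 0.339% of all genes lower and 1.77% and 1.83% higher. With limma-voom 0 members were called, as were 0% of all genes. Adding a term for replicate number to edgeR's quasi-likelihood test (the replicate block) called 2 members lower and 0 higher. The 2 were Lpl (adjusted p 0.00280) and Plin2 (0.0226). Over all 13285 tested genes that fit called 768 lower and 913 higher. Both dexamethasone libraries lay below both vehicle libraries in 3 of the 9, Lpl, Angptl4 and Plin2, which is 33.3% against 12.9% of all tested genes. In 0 of the 9 did they lie above, against 15.0%. The 6 others overlapped. The median log2 fold change of the 9 was -0.08, against 0.00 over all tested genes. With so few libraries a change of modest size can miss the threshold, so intervals are given below. They come from the fit with no term for replicate number. Differences between replicate numbers therefore count as spread within the groups and widen them.

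**Figure D1:**
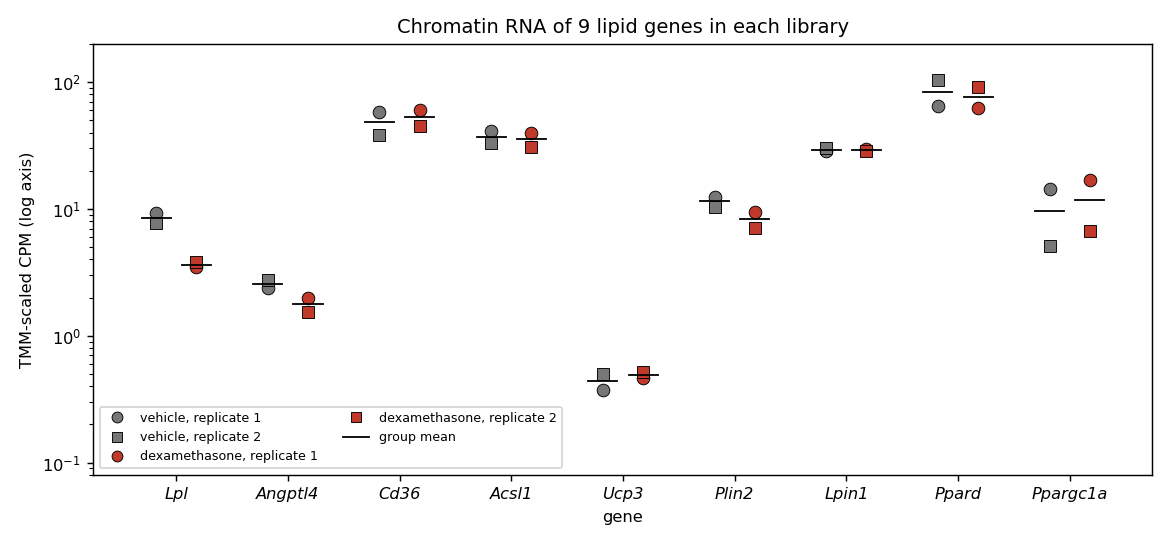
TMM-scaled CPM on a log axis for the 9 tested genes, with vehicle in grey and dexamethasone in red, circles for replicate 1 and squares for replicate 2, and a line at each group mean. The groups separate without overlap in Lpl, Angptl4 and Plin2, while Ppargc1a, Cd36, Ppard, Acsl1 and Ucp3 separate by replicate number.

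Among the genes of uptake, Lpl, the lipase that releases fatty acids from lipoproteins, had the lowest values after dexamethasone relative to vehicle. Its levels were 9.22 and 7.77 CPM (counts relative to the library size after TMM adjustment) in vehicle replicates 1 and 2, and 3.47 and 3.79 CPM in dexamethasone replicates 1 and 2. These rest on 172, 295, 104 and 354 counts. Both treated libraries were thus below both controls, and the spread within each group was small beside the gap, with 8.5 ± 1.03 CPM against 3.63 ± 0.227 CPM (SD, n = 2 each). The log2 fold change was -1.22 (SE 0.214, 95% interval -1.79 to -0.66), which corresponds to 0.429 of the vehicle level (interval 0.290 to 0.635). By edgeR's quasi-likelihood test the unadjusted p was 0.00310, rank 179 of the 13285 genes, and the adjusted p was 0.230. The adjusted p was 0.00867 with DESeq2 and 0.00932 with the likelihood ratio test, and ran from 0.00280 to 0.985 over all alternatives. The log2 ratio was -1.40 within replicate 1 and -1.03 within replicate 2.

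The summed levels of fibroblast and of proliferating myoblast markers were lower in both dexamethasone libraries than in both vehicle libraries, as was Lpl. The summed level of 5 fibroblast markers was 321 and 394 CPM in the vehicle libraries and 230 to 248 CPM in the dexamethasone libraries. Most of it was Col1a2, at 286 and 337 CPM in the vehicle libraries. Within that list Col1a1, Col1a2 and Dcn had log2 fold changes of -0.98, -0.59 and -0.51, Pdgfra had one of 1.04, and Thy1 was listed at 0. The sum of 6 markers of proliferating myoblasts was 56.6 and 61.3 CPM against 42.0 and 49.9 CPM. Pax7 alone made up 32.0 and 39.0 CPM of the vehicle sums. In that list 1 gene, Pax7, had a negative log2 fold change (-0.80, SE 0.201), and the 5 others had positive ones, at 0.07 (Mki67), 0.09 (Top2a), 0.20 (Ccnb1), 0.23 (Cdk1) and 0.30 (Myf5). Their part in the Lpl values was not tested. In such bulk libraries fewer cells of a type and less RNA per cell cannot be told apart.

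Angptl4 encodes a secreted inhibitor of lipoprotein lipase and is a known target of both the glucocorticoid receptor and PPARs in other tissues. Its levels were 2.36 and 2.77 CPM in the vehicle libraries and 2.00 and 1.53 CPM in the dexamethasone libraries, from 44 to 143 counts. No treated library exceeded a control, but the gap from 2.00 to 2.36 CPM between the nearest libraries was narrower than the range inside either group. Its log2 fold change was -0.55 (SE 0.310, 95% interval -1.37 to 0.27, unadjusted p 0.142 by edgeR). The upper end of that interval is 1.21 times the vehicle level. The log2 ratio was -0.23 within replicate 1 and -0.84 within replicate 2.

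Cd36, the fatty acid transporter of the plasma membrane, stood at 58.4 and 38.5 CPM in the vehicle libraries and at 60.1 and 45.3 CPM in the dexamethasone libraries. Here the replicate 1 libraries were the high ones in both groups. Its log2 fold change was 0.12 (SE 0.268, 95% interval -0.59 to 0.83).

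Of the genes of activation and oxidation, Acsl1, which couples long-chain fatty acids to coenzyme A, had 41.3 and 33.0 CPM in the vehicle libraries and 39.6 and 31.0 CPM in the dexamethasone libraries. Again the replicate 1 libraries were the higher ones in each group, and the groups overlapped. Acsl1 had a log2 fold change of -0.08 (SE 0.204, 95% interval -0.62 to 0.46).

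Ucp3, a mitochondrial carrier of the uncoupling protein family found mainly in muscle, was the least abundant of the measured genes. Its vehicle libraries held 7 and 19 counts (0.375 and 0.501 CPM) and its dexamethasone libraries 14 and 48 (0.467 and 0.514 CPM). The groups overlapped, and the interval of the log2 fold change was wide, at 0.15 (SE 0.418, 95% interval -0.96 to 1.25), which reaches up to 2.38-fold.

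Cpt1b, the muscle form of the enzyme that passes fatty acids to carnitine, was listed at 0 in every library. Its neighbour Chkb, on the same strand, was also at 0. GENCODE M21 places the gene model Gm44502 over Cpt1b on that strand, and this model had 16, 31, 20 and 61 counts in the table. How reads in overlapping genes were counted is not given in the sources used here, and whether the overlap bears on the 0 was not tested. The 0 is therefore not read as silence of the gene, and no fold is given.

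The genes of storage differed from each other. Plin2, which coats lipid droplets in most cells, stood at 12.5 and 10.4 CPM in the vehicle libraries and at 9.47 and 7.10 CPM in the dexamethasone libraries. Both treated libraries were lower than both controls, and in each group replicate 1 was above replicate 2. Plin2 had a log2 fold change of -0.47 (SE 0.233, 95% interval -1.09 to 0.15, unadjusted p 0.105 by edgeR). Within replicate numbers the log2 ratios were -0.40 and -0.55.

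Lpin1 encodes a phosphatidate phosphatase that makes diacylglycerol and also acts in the nucleus with PPAR coactivators. It had 28.5 and 30.1 CPM in the vehicle libraries and 29.8 and 28.8 CPM in the dexamethasone libraries, 29.3 ± 1.14 against 29.3 ± 0.719 CPM (SD, n = 2 each). No library stood apart. The log2 fold change was 0.00 (SE 0.135), and its 95% interval, -0.36 to 0.36, was the narrowest of the 9 and corresponds to 0.781-fold to 1.28-fold. It was also the member whose replicates were most alike, with replicate differences of -0.08 and 0.05 on the log2 scale in vehicle and dexamethasone. Its promoter, shown above, holds the hexamer match.

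**Figure D2:**
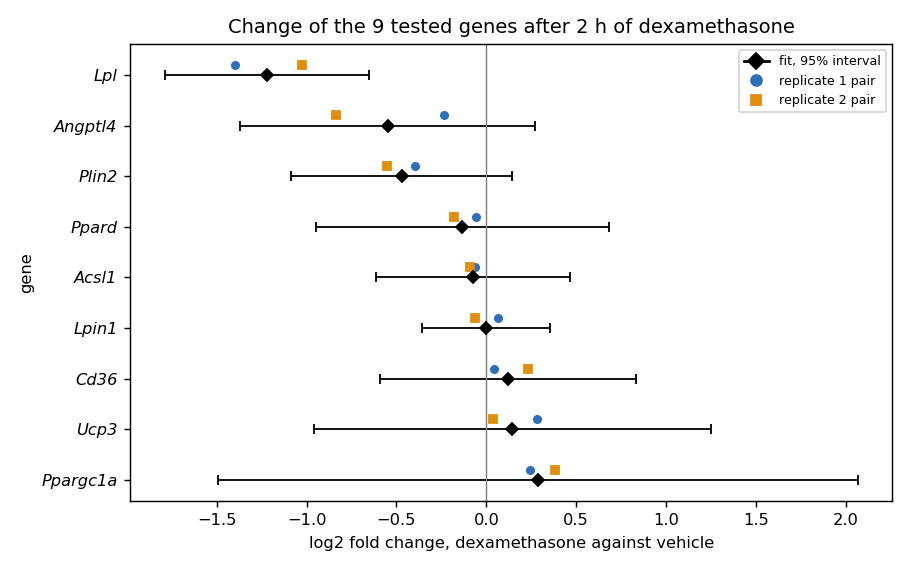
Log2 fold change of the 9 tested genes, with the fitted value and its 95% interval as a black diamond and bar, and the log2 ratio within replicate 1 (blue circle) and replicate 2 (orange square). The interval of Lpl, -1.79 to -0.66, lies below 0, the other 8 intervals cross it, and that of Ppargc1a is the widest.

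The first of the regulators, Ppard, the gene of PPAR-delta, had 64.8 and 103 CPM in the vehicle libraries and 62.3 and 91.2 CPM in the dexamethasone libraries. Both replicate 2 libraries were the high ones. Its log2 fold change was -0.13 (SE 0.309, 95% interval -0.95 to 0.69).

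Ppargc1a, the gene of PGC-1alpha, an inducer of mitochondrial genes, had 14.3 and 5.11 CPM in the vehicle libraries and 16.9 and 6.67 CPM in the dexamethasone libraries. The replicate 1 libraries exceeded the replicate 2 libraries by 1.47 (vehicle) and 1.33 (dexamethasone) on the log2 scale, and the size of the vehicle difference was at percentile 96.3 of the tested genes. Within each replicate number the treated library was the higher, by 0.24 and 0.38. The log2 fold change was 0.29 (SE 0.673), with a 95% interval from -1.49 to 2.07 that spans a 0.355-fold to a 4.19-fold level. The summed level of the 10 myotube markers followed the same split, at 130005 and 125248 CPM in the replicate 1 libraries of vehicle and dexamethasone and 46645 and 45429 CPM in the replicate 2 libraries, most of it Ttn. Ttn, Myh3, Myh8, Neb, Ckm, Actn2, Myog and Des were each higher in replicate 1, by at least 0.959 on the log2 scale. Ryr1 differed by only 0.09 (vehicle) and 0.16 (dexamethasone), and Mymk by 0.02 and 0.0026. The part of this split by replicate number in the Ppargc1a values was not tested.

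Sorted by replicate number instead of treatment, 3 of the 9 genes (Cd36, Acsl1 and Ppargc1a) were higher in each replicate 1 library than in either replicate 2 library and 2 (Ppard and Ucp3) were lower, against 31.8% and 32.1% of all tested genes. Leaving out single libraries turned the sign of the log2 fold change of Cd36, Ppard, Ppargc1a, Acsl1, Ucp3 and Lpin1. These fits have no term for replicate number, so leaving out a library also shifts the balance between replicate numbers. Within replicates 1 and 2 the log2 ratios were 0.04 and 0.23 for Cd36, and -0.06 and -0.18 for Ppard. They were 0.24 and 0.38 for Ppargc1a, and -0.06 and -0.09 for Acsl1. Those of Ucp3 were 0.28 and 0.03. Only Lpin1, at 0.07 and -0.06, had ratios that differed in sign. The sign stayed the same for Lpl (-1.33 to -1.09), Angptl4 (-0.74 to -0.36) and Plin2 (-0.68 to -0.27). That was fixed in advance, since their groups do not overlap.

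Levels were compared between genes per kilobase of exons in GENCODE M21. In vehicle, Cd36 was highest at 13.5 ± 3.92 CPM per kilobase (SD, n = 2), followed by Ppard at 11.2 ± 3.63, and these neighbours did not differ beyond their spread. Next came Acsl1 at 3.55 ± 0.560, Plin2 at 3.26 ± 0.415 and Lpin1 at 3.03 ± 0.118, whose spreads overlapped. Ppargc1a stood at 1.47 ± 0.982, Lpl at 0.811 ± 0.0980 and Angptl4 at 0.724 ± 0.0812, which also overlapped one another. Ucp3 was lowest of those with counts, at 0.140 ± 0.0282. After dexamethasone Lpl, at 0.346 ± 0.0217, came below Angptl4, at 0.499 ± 0.0939. Whether intronic reads were counted is not given in the sources used here. Per kilobase of the whole gene Ppard came first and Cd36, a gene spanning 107112 bases, came to place 4. On that scale Lpl, at 0.315 ± 0.0381, and Angptl4, at 0.317 ± 0.0356, were already level in vehicle. Ppargc1a came below both, at place 8.

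Among direct relatives of the members, Plin4 and Lpin2 had the highest fold changes. Plin4, which coats droplets in fat and muscle cells, had 2.14 and 2.19 CPM in the vehicle libraries and 17.7 and 12.7 CPM in the dexamethasone libraries. Both treated libraries stood far above both controls, and the log2 fold change was 2.81 (SE 0.255, 95% interval 2.13 to 3.48). That did not pass over all genes with edgeR's quasi-likelihood test (adjusted p 0.117), but it passed with DESeq2 (4.53e-13) and without vehicle replicate 2 (0.0204) or dexamethasone replicate 2 (0.0280), with a range of 4.53e-13 to 0.153 over the alternatives. Plin3, found on droplets of most cells, had a log2 fold change of 0.20 (SE 0.283). Plin5, the perilipin of oxidative tissue, had 1 count in all 4 libraries together.

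The other lipins had positive values beside the flat Lpin1. Lpin2 stood at 67.6 and 75.9 CPM in the vehicle libraries and at 131 and 122 CPM in the dexamethasone libraries, which did not overlap. Its log2 fold change was 0.81 (SE 0.131, 95% interval 0.47 to 1.16), with an adjusted p of 0.201 by edgeR's quasi-likelihood test and 0.00661 by DESeq2 (0.00140 to 0.9999 over all alternatives). Lpin3 had 35 and 32.2 CPM against 50.6 and 43.4 CPM, a log2 fold change of 0.48 (SE 0.152, adjusted p 0.667 by edgeR). The interval of Lpin2 lies above that of Lpin1, -0.36 to 0.36, though the difference between the genes was not tested.

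Of the other acyl-CoA synthetases, Acsl4, which prefers arachidonic acid, had the largest value, with 260 and 154 CPM in the vehicle libraries and 373 and 246 CPM in the dexamethasone libraries. The groups overlapped, since vehicle replicate 1 lay above dexamethasone replicate 2, and the log2 fold change was 0.58 (SE 0.339). Within replicates 1 and 2 the log2 ratio of Acsl4 was 0.52 and 0.67. Acsl3, Acsl5 and Acsl6 lay at -0.15, -0.20 and 0.28. Cpt1a and Cpt1c, the liver and brain forms of the enzyme that Cpt1b encodes in muscle, lay at -0.37 (SE 0.246) and -0.24 (SE 0.404). The log2 ratio of Cpt1a was -0.37 within replicate 1 and -0.38 within replicate 2. Ucp2 lay at 0.18 (SE 0.201).

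Among the nuclear receptors, Pparg and Ppara had log2 fold changes of -0.18 (SE 0.246) and -0.04 (SE 0.431). Of the PGC-1 coactivators, Ppargc1b, the gene of PGC-1beta, had the smallest SE. It had 164 CPM in both vehicle libraries and 112 and 110 CPM in the dexamethasone libraries. The log2 fold change was -0.57 (SE 0.113, 95% interval -0.87 to -0.27, adjusted p 0.306 by edgeR), and it ran only from -0.57 to -0.55 when single libraries were left out. Pprc1, the third of the family, lay at -0.08 (SE 0.161).

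**Figure D3:**
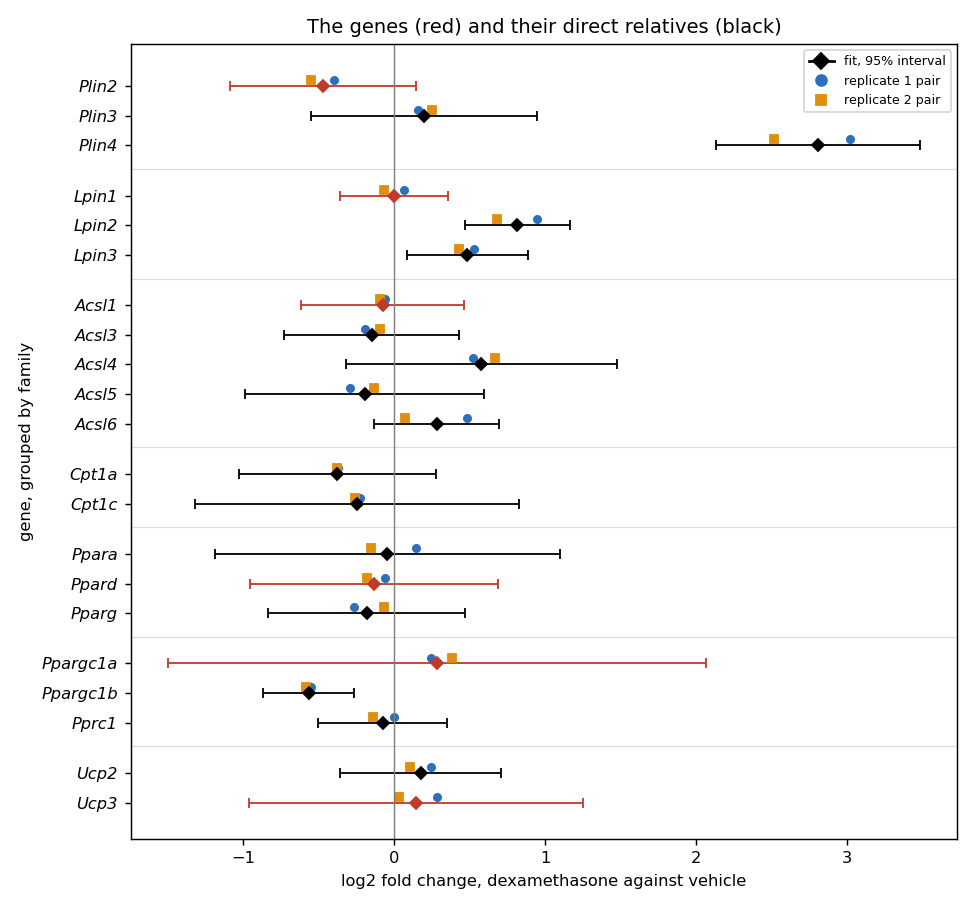
Log2 fold change of the members (red) and their direct relatives (black) by family, as fitted value with 95% interval, and the log2 ratios within replicate 1 (blue circles) and replicate 2 (orange squares). Plin4 at 2.81 and Lpin2 at 0.81 lie to the right of Plin2 at -0.47 and Lpin1 at 0.00, and Ppargc1b at -0.57 lies left of 0.

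The pathway around the members was taken from 5 lists with 131 genes in all, members included. Of these 113 were tested, 11 had too few counts, and 7 were listed at 0 in every library. Of the 113, 1 rose (0.885%) and 0 fell (0%) at an adjusted p under 0.05 with edgeR's quasi-likelihood test. Of all tested genes 0.0376% rose and 0% fell. At an unadjusted p under 0.05, 8 were higher (7.08%) and 3 lower (2.65%), against 4.09% and 1.69% of all tested genes. DESeq2 called 5 higher (4.42%) and 2 lower (1.77%), against 1.77% and 0.399%. Both treated libraries lay above both controls in 19 genes (16.8%) and below in 14 (12.4%), shares close to those of all tested genes. The median log2 fold change was -0.04.

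The gene that rose was Pdk4, of the oxidation list, a kinase that shuts off pyruvate dehydrogenase and so favours fat over glucose as fuel. It had 3.70 and 3.87 CPM in the vehicle libraries and 33.4 and 32.0 CPM in the dexamethasone libraries, a log2 fold change of 3.11 (SE 0.160, adjusted p 0.0429 by edgeR). It did not pass without vehicle replicate 1 (adjusted p 0.0541), with library size only (0.111) or under limma-voom, and the adjusted p ran from 2.88e-30 to 0.111 over all alternatives. Most of the 35 tested genes of activation, carnitine shuttle and oxidation were close to 0. The list's median was 0.00, and 29 of the 35 (82.9%) had a log2 fold change within 0.25 of 0, against 70.1% of all tested genes. Examples are the beta-oxidation genes Acadm (0.00, SE 0.138), Hadha (0.04, SE 0.249) and Hadhb (0.01, SE 0.130).

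In the uptake list 14 of 18 genes were tested, 0 passed, and the median was -0.11. Beside Lpl and Angptl4 its lowest unadjusted p among genes without overlap was that of Vldlr, a receptor that binds triglyceride-rich lipoproteins. Vldlr had 86.1 and 90.6 CPM in the vehicle libraries and 213 and 147 CPM in the dexamethasone libraries. Its log2 fold change was 1.03 (SE 0.214, adjusted p 0.322 by edgeR's quasi-likelihood test and 0.00781 by DESeq2, 0.00521 to 0.9999 over all alternatives). In the storage list 23 of 32 genes were tested, 0 passed, and the median was 0.05. Plin4, Lpin2 and Lpin3 were its leading genes.

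The list of fatty acid synthesis had 12 of 14 genes tested, 0 called and a median of -0.10. Elovl6, which extends palmitate, had 45.3 and 40.3 CPM in the vehicle libraries and 25 and 23.9 CPM in the dexamethasone libraries, a log2 fold change of -0.81 (SE 0.143, adjusted p 0.235 by edgeR and 0.0119 by DESeq2, 0.000821 to 0.9999 over all alternatives). Elovl5, an elongase of polyunsaturated fatty acids, lay at 0.46 (SE 0.123), and the desaturase gene Fads2 at -0.63 (SE 0.241). Fasn and Acaca, which build palmitate, lay at -0.11 (SE 0.198) and -0.08 (SE 0.120). In the list of regulators 29 of 30 were tested, 0 passed, and the median was -0.08. Klf15, a transcription factor that governs lipid and amino acid use in muscle, had 5.47 and 8.14 CPM in the vehicle libraries and 18.7 and 21.9 CPM in the dexamethasone libraries. Its log2 fold change was 1.57 (SE 0.257, adjusted p 0.209 by edgeR and 0.000122 by DESeq2), and it passed without vehicle replicate 2 (0.0377), with a range of 0.000122 to 0.463 over all alternatives. Mlxip, a glucose-sensing factor, lay at 0.34 (SE 0.121).

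Apart from Cpt1b, 6 genes of the lists were at 0 in every library. Etfa and Me1 lie in a run of 371 consecutive genes of the table on the minus strand of chromosome 9 that are all at 0, and Gpam and Scd1 in one of 146 on the minus strand of chromosome 19, and all 4 were treated as not measured. Gpihbp1 and Cidec stood alone at 0 between neighbours with counts on their strand.

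**Figure D4:**
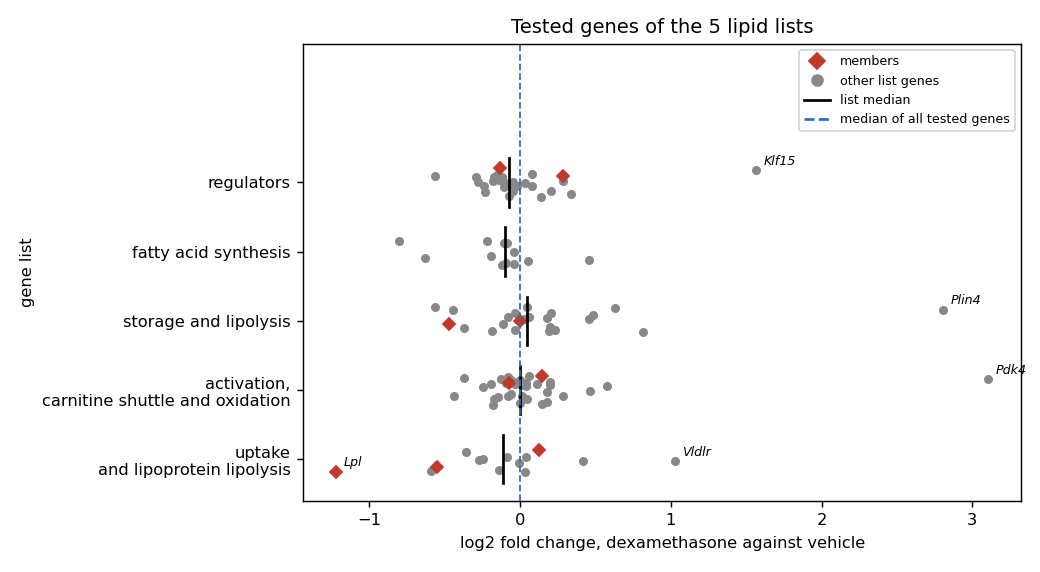
Log2 fold change of each tested gene in the 5 lipid lists, with members as red diamonds, other genes in grey, a black line at each list's median and a dashed line at the median of all tested genes. Medians lie between -0.11 and 0.05, with Pdk4, Plin4, Klf15 and Vldlr far to the right and Lpl to the left.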

How the data were processed

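Chromatin-bound RNA of C2C12 myotubes was sequenced in 2 vehicle and 2 dexamethasone libraries, per the labels. The table deposited by the authors gives unnormalized read counts per gene, 1 column per library. The submitters' processing notes name TopHat2 2.0.13, SAMtools 1.1, HTSeq 0.6.1, DESeq2 1.18.1 and mm9, without saying what each did. The labels' protocols name stranded TruSeq kits, for total RNA in one place and for mRNA in another. Annotation, the strand setting of the counting and the treatment of introns and overlapping genes are not given in the sources used here.

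Of 23333 rows, 51 repeated a gene with all its counts and were used once. From 23282 features, filterByExpr (minimum count 10, minimum total 15) kept 13285. These were tested with edgeR 4.0.16 (R 4.3.3), TMM scaling and the two-sided quasi-likelihood test, with no term but treatment. SE is the log2 fold change divided by the square root of the F statistic, and intervals use the test's degrees of freedom. Alternatives were DESeq2 1.42.0 size factors and Wald test, library size only, other filters, limma-voom (limma 3.58.1), the likelihood ratio test, a replicate block, an adjusted p under 0.1 and leaving out each library. GENCODE M21 gave exon lengths and neighbours only.

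Members, lists and tests were chosen with earlier results of these data known. Named were all members, their direct relatives in the lists, and of each list the genes past the threshold or otherwise the 3 with the lowest unadjusted p among genes whose groups do not overlap, plus Fkbp5 and Nr3c1 for scale. Other names are examples or were chosen after their values were seen.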

Additional observations from a re-analysis of the deposited data

How the results depend on the processing

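Depth limits Ucp3 and Angptl4 most. Against 5 genes higher and 0 lower, a filter of 1 count called 23 higher, DESeq2's Wald test 235 and 53, the likelihood ratio test 243 and 45, and limma-voom 0 (543 and 225 at an unadjusted p under 0.05 in edgeR). Members called lower went from 0 to 1 with DESeq2 and with the likelihood ratio test. Of the lipid lists, library size only and limma-voom called 0 genes, the 1-count filter called 2 higher, and DESeq2 and the likelihood ratio test each called 5 higher and 2 lower. With library size only the median log2 fold change was 0.0077 for storage and -0.12 for the members, and it was -0.10 for the members with at least 10 counts in every sample. Lpin1 turned to 0.014 with the 1-count filter and to 0.0013 with at least 10 counts in every sample. With only the bases before the start, the palindrome was in 0.387% and the hexamer in 16.1% of all promoters. The cause was not tested for any of these.

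The labels do not say that replicate numbers mark a batch, and 2 pairs cannot establish it. The replicate differences correlated between groups across genes (r = 0.734). The replicate block called 913 of the 13285 tested genes higher and 768 lower. It called 2 of the 9 tested members lower, Lpl (adjusted p 0.00280) and Plin2 (0.0226). Of the 113 tested lipid genes it called 13 higher and 8 lower. Of the members' relatives it called Plin4 (0.000183), Lpin2 (0.00140), Lpin3 (0.00555) and Acsl4 (0.00174) higher and Ppargc1b (0.00145) and Cpt1a (0.0126) lower, by adjusted p.

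Fits that each left out one library called 4 to 84 genes higher and 0 to 109 lower, the most without vehicle replicate 2, and 0 to 3 lipid genes higher. Each assumes that the lone library varies like the other group, and none has a term for replicate number. Medians ran from -0.21 to 0.062 for uptake, 0.0047 to 0.090 for oxidation, -0.089 to 0.13 for storage, -0.21 to -0.023 for synthesis, -0.14 to 0.071 for regulators and -0.26 to 0.024 for the members. Single genes that turned sign ran from -0.038 to 0.048 (Lpin1), -0.14 to 0.45 (Cd36), -0.44 to 0.25 (Ppard), -0.52 to 1.19 (Ppargc1a), -0.26 to 0.095 (Acsl1), -0.020 to 0.40 (Ucp3), -0.057 to 0.51 (Plin3), -0.35 to 0.090 (Acsl3), -0.55 to 0.086 (Acsl5), -0.70 to 0.24 (Cpt1c), -0.34 to 0.41 (Ppara), -0.42 to 0.12 (Pparg) and -0.21 to 0.086 (Pprc1).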

Other observations

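Further genes of the lists, chosen after their values were seen, had groups that did not overlap although none passed the edgeR threshold. Pnpla2, the gene of the lipase that starts the breakdown of stored triglyceride, had 3.65 and 2.85 CPM in the vehicle libraries and 5.77 and 4.25 CPM in the dexamethasone libraries (log2 fold change 0.63, SE 0.289). G0s2, which encodes an inhibitor of that lipase, had 4.24 and 4.56 CPM against 3.70 and 2.79 CPM (log2 fold change -0.45, SE 0.263). Cpt2, the mitochondrial partner of carnitine palmitoyltransferase 1, had 8.26 and 7.96 CPM against 12 and 10.4 CPM (log2 fold change 0.46, SE 0.182). Nrip1, a nuclear corepressor of oxidative genes, had 86.2 and 84.2 CPM against 107 and 100.2 CPM (log2 fold change 0.28, SE 0.119). Groups without overlap are common in these libraries, at 15.0% of all tested genes above and 12.9% below.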
